A study of Mus musculus with 9 samples.

Results

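The cell proliferation genes are 36 genes that encode cyclins, replication proteins, mitotic kinases and other parts of the division machinery, out of 55536 genes in the deposited tables. They were taken by gene symbol, with a rule that uses no measured value, and all 36 were found. The libraries come from muscle of male ICR mice, an outbred stock, and the labels do not say which muscle. In all, 3 groups of 3 libraries were compared. Young vehicle libraries (replicates 2, 3 and 4) come from 2-month-old mice given vehicle, and aged vehicle libraries (replicates 1, 3 and 4) from 18-month-old mice given vehicle. Aged GW8510 libraries (replicates 1, 3 and 4) come from 18-month-old mice that received GW8510, dissolved in sodium carboxymethylcellulose, by daily intraperitoneal injection at 2 mg/kg for 14 days. The title of the study calls GW8510 a benzenesulfonamide and names p21-activated kinases as its partners. It is also known as an inhibitor of cyclin-dependent kinases.

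A dividing cell runs through its cycle on waves of cyclins. D-type cyclins with CDK4 and CDK6 release E2F factors from the RB family, cyclin E and cyclin A with CDK2 drive DNA replication, and cyclin B with CDK1 drives mitosis. E2F turns on the genes of replication, and the DREAM and MuvB complexes, with B-MYB and FOXM1, time the genes of G2 and mitosis through CHR elements in their promoters. Muscle fibres are post-mitotic, and the cells of a muscle that can divide, such as satellite, endothelial and connective tissue cells, lie between the fibres. Some members have other uses: cyclin D3 accumulates in differentiating muscle cells, and PCNA and ribonucleotide reductase also serve DNA repair and the supply of deoxynucleotides outside S phase.

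Library totals ran from 21718930 to 27437937 counts, and 3 counts in a library correspond to 0.103 to 0.136 CPM. CPM is the usual count scaled to library size, here after TMM scaling, a correction for differences in composition. The 10 markers of muscle fibres summed to 113000 to 171900 CPM in every library, so the labelled tissue was present throughout. Aged vehicle library 4 stood apart from the others: its mean correlation with its own group was 0.942, against 0.958 and 0.956 for the other aged vehicle libraries. It also held the highest summed level of the 10 neutrophil markers, 23.6 CPM against 0.0423 to 5.49 elsewhere, with Mpo and Elane at 0 in all libraries. Its 10 T and NK cell markers summed to 7.06 CPM against 0.726 to 3.56 elsewhere. Where leaving out this or another library moved a member's value by over 1.5 times, the value without it is given for the members described in full. The labels do not say that the libraries of a group come from separate animals, so p-values measure the spread between these libraries.

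In all, 10 members were too low to measure by the count test. They are Ccnb1 and Ccnb2 (B-type cyclins), Foxm1 (a transcription factor of G2 and mitosis), Bub1 and Bub1b (spindle checkpoint kinases), Aurkb and Plk1 (mitotic kinases), Birc5 (survivin, a partner of Aurora B), and Cenpe and Cenpf (kinetochore proteins). Each missed the filter that asks for about 10 counts, scaled to library size, in at least 3 libraries. Their mean counts over the 9 libraries lay between 1.33 (Cenpf) and 10.6 (Foxm1). Foxm1, with 25, 18 and 11 counts in the young libraries, and Ccnb2, with 10, 20 and 11, missed it narrowly. They were tested in 8 and 4 of the 9 fits with a library left out. A filter on the mean over all libraries, blind to the groups, left out 12 members: it kept Foxm1 and left out Ccne1, Cdk1 and Cdc20 as well. No member stayed under 3 counts in every library. A further 6 members, Ccna2, Cdc20, Cdk1, E2f1, Mki67 and Top2a, had at least 10 counts in all 3 young libraries and under 10 in 4 or more of the 6 aged ones. They passed the filter through the young group, so their place among the tested genes already depends on a higher young level.

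Levels between genes can be compared only per transcript length, in the TPM values that the authors deposited. On that scale Aurka led with a mean of 18.5 TPM over the 9 libraries, followed by Rrm1 (15.6 TPM), Pcna (13.1 TPM), Ube2c (11.0 TPM) and Ccnd3 (10.4 TPM). Mcm7 came next at 3.03 TPM. The genes that mark dividing cells most narrowly were far lower: Cdk1 averaged 0.461 TPM, Top2a 0.288, Ccna2 0.239, Ccnb2 0.201, Plk1 0.197, Aurkb 0.0900 and Mki67 0.0722. Aurka, a mitotic kinase, thus stood well above the other mitotic members except Ube2c. The level of Ube2c, a ubiquitin-conjugating enzyme of the anaphase-promoting complex, is uncertain because its exons overlap those of a very abundant muscle gene on the opposite strand. The plot of CPM by member and library shows the same spread of levels.

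**Figure D1:**
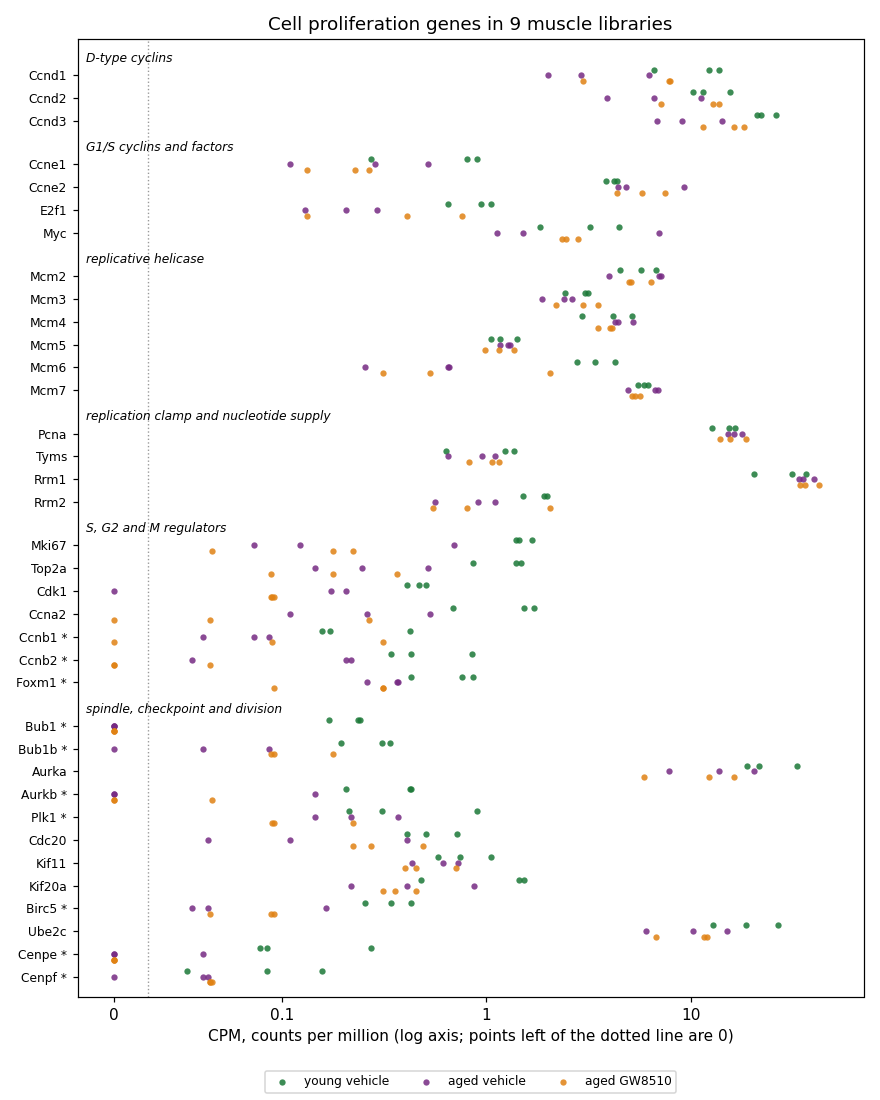
CPM of the 36 members in the 9 libraries on a log axis, 1 row per member and 1 point per library, coloured by group, with points at 0 drawn left of the dotted line and members too low to test marked with an asterisk. The green young points stand right of all aged points in 13 rows, most of them in the lower part of the plot, while Mcm2 to Mcm5, Mcm7, Pcna and Rrm1 overlap.

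With age, no member passed the test, and the direction differed by role. The S, G2 and M regulators were lower in every aged vehicle library than in every young one, whereas most helicase subunits and the replication clamp lay close to their young level. Of the 26 members tested, 0 reached an adjusted p under 0.05 in aged vehicle over young vehicle (edgeR quasi-likelihood test, Benjamini-Hochberg over 14384 genes), where 0.695% of all tested genes were lower and 0.521% higher. At an unadjusted p under 0.05, 9 members were lower and 0 higher, against 10.1% and 9.07% of all tested genes. Of those 9, Ccna2, Cdk1, E2f1, Mki67 and Top2a had passed the filter through the young group, so the count is in part fixed by the filter. DESeq2 called 5 members lower at an adjusted p under 0.05 (Ccnd1, Ccnd3, Mcm6, Mki67 and Top2a), where it called 3.96% of genes lower and 2.82% higher. limma-voom called 0 members, with 0.716% of genes lower and 0.368% higher. Without the filter on low counts, edgeR called 3 of the 36 lower (Ccnd1, Ccnd3 and Mcm6) and 0 higher, against 1.69% and 1.03% of 25713 genes. The authors' deposited table gives 4 members an adjusted p under 0.05, all lower with age: Ccnd1 (0.0190), Ccnd3 (0.00413), Mcm6 (2.41e-06) and Mki67 (0.0467).

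Counted without a test, 18 of the 36 members were lower in all 3 aged vehicle libraries than in all 3 young ones, against 9.18% of the 25713 genes with a count, and 1 (Ccne2) was higher, against 8.38%. Among the 24 members with a mean count of at least 10, the numbers were 9 lower (13.5% of such genes) and 1 higher (12.8%). Leaving out aged vehicle library 4, an alternative chosen after the data were seen, 20 members were lower (12.5% of genes) and 2 higher (12.9%). With no filter the median log2 fold change of the 36 was -1.17, and over the 24 kept by the filter on the mean it was -0.80, against 0.01 over all genes kept. Over the 26 tested it was -0.85, a set that holds the 6 members that passed through the young group. In all, 13 members were higher in the 3 young libraries than in all 6 aged ones (5.11% of genes) and 0 were lower (4.05%). These were Ccnd3, Mcm6, Mki67, Top2a, Cdk1, Ccna2, Ccnb2, Foxm1, Bub1, Bub1b, Aurkb, Birc5 and Cenpe. In whole tissue, fewer cells of a type and less RNA per cell cannot be told apart.

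**Figure D2:**
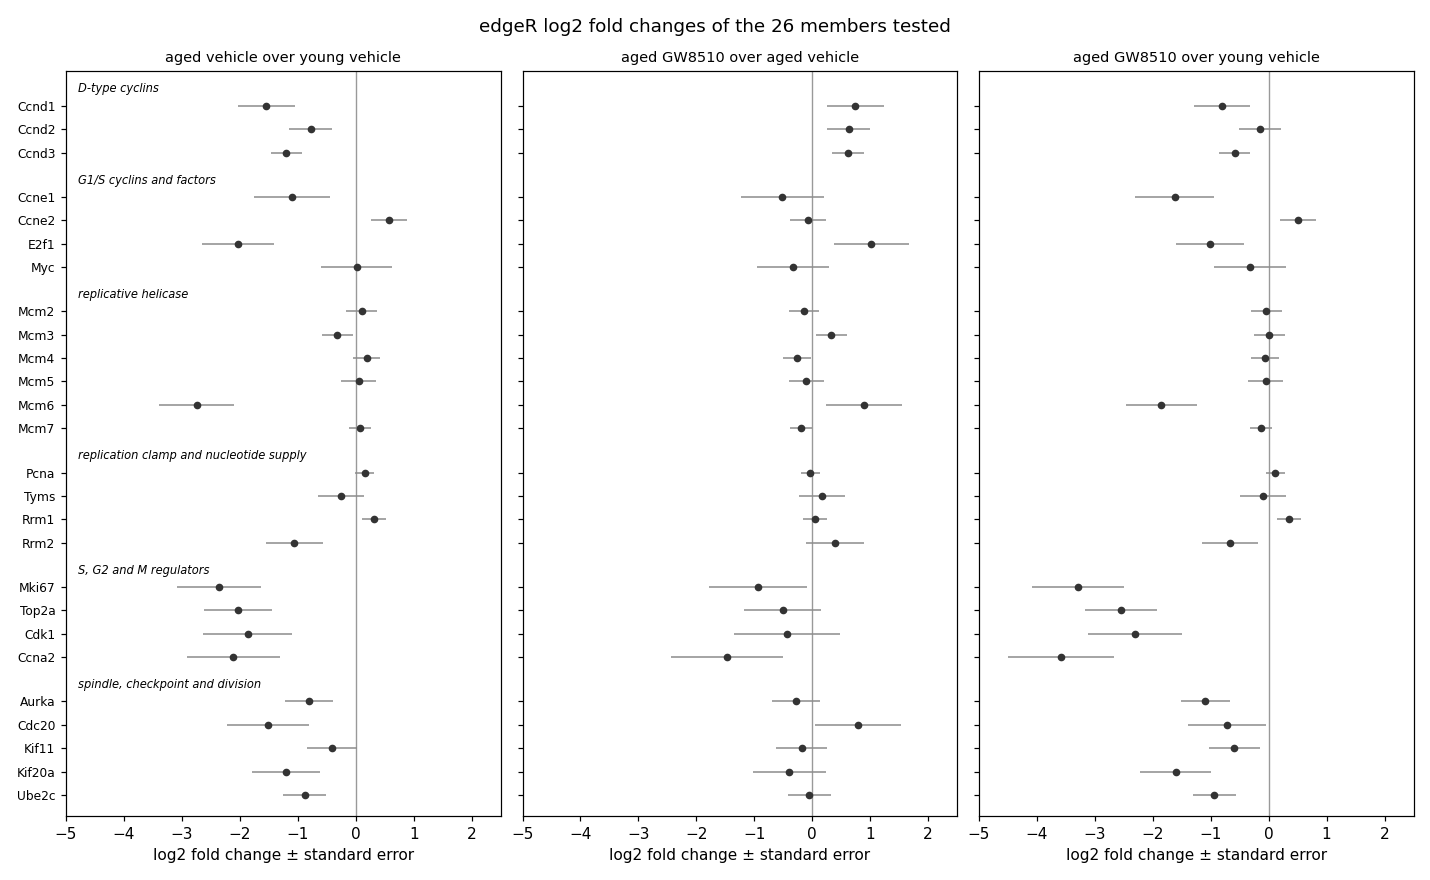
Log2 fold change with its standard error for the 26 members tested, by role, in the 3 comparisons (edgeR, n = 3 libraries a group). In aged vehicle over young vehicle Mcm6 stands at -2.74 while the other 5 helicase subunits lie between -0.32 and 0.19.

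Mki67 encodes Ki-67, a coat protein of mitotic chromosomes and the standard marker of cycling cells. Its levels were 1.40, 1.44 and 1.68 CPM in the young libraries, 0.0727, 0.123 and 0.693 in aged vehicle libraries 1, 3 and 4, and 0.0454, 0.221 and 0.178 in aged GW8510 libraries 1, 3 and 4. All 6 aged libraries lay below the lowest young library, and aged vehicle library 4 was the highest of the 6. Mki67 was 5.12-fold lower in aged vehicle than in young muscle (log2 fold change -2.36 ± 0.73 SE, edgeR adjusted p = 0.139). In the fit that left out aged vehicle library 4 the log2 fold change was -3.89 and the edgeR adjusted p 0.0356. Mki67 passed in only this 1 of the 9 fits with a library left out, and the largest edgeR adjusted p among them was 0.3021. In the aged vehicle group these values rest on 2, 3 and 16 counts. The gene lies on chr7:135689784-135716361 (GRCm38, minus strand), and no exon of a neighbour overlaps it.

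Top2a, the topoisomerase that untangles sister chromatids, measured 0.855, 1.40 and 1.48 CPM in the young libraries. It measured 0.146, 0.245 and 0.520 CPM in aged vehicle and 0.363, 0.0886 and 0.178 CPM in aged GW8510 libraries 1, 3 and 4. The young and aged ranges did not overlap, and aged vehicle library 4 was again the highest aged library. Top2a was 4.09-fold lower in aged vehicle than in young (log2 fold change -2.03 ± 0.59 SE, edgeR adjusted p = 0.123). Without aged vehicle library 4 the log2 fold change of Top2a was -2.65 (edgeR adjusted p = 0.102).

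Ccna2, cyclin A2, which partners CDK2 in S phase and CDK1 in G2, measured 0.684, 1.52 and 1.72 CPM in the young libraries. Its aged vehicle values were 0.109, 0.532 and 0.260 CPM, and its aged GW8510 values 0, 0.266 and 0.0445 CPM. All aged libraries were below the young ones, and the lowest were treated libraries 1 and 4. The log2 fold change of aged vehicle over young was -2.11 ± 0.80 SE (4.32-fold lower, edgeR adjusted p = 0.201), and without aged vehicle library 3 it was -2.81 (edgeR adjusted p = 0.142). Exons of Ccna2 overlap those of Exosc9 on the opposite strand by 510 bases, and Exosc9 averaged 8.91 TPM, so reads may be shared if counting ignored strand, which is not stated.

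Cdk1, the kinase of mitosis, had 12, 11 and 13 counts in the young libraries, 0, 5 and 4 in aged vehicle, and 2 in each aged GW8510 library. Ccnb2 had 10, 20 and 11 counts in the young libraries, 1, 5 and 5 in aged vehicle, and 0, 0 and 1 in aged GW8510. Neither gene's aged libraries reached its young ones. The log2 fold change of Cdk1 with age was -1.87 ± 0.76 SE, and -1.26 without aged vehicle library 1. A processed pseudogene, Ccnb2-ps, held 130 counts over the 9 libraries against 53 for Ccnb2, so reads that fit both could be split between them. Summed over the 7 S, G2 and M regulators, the young libraries measured 4.72 to 6.85 CPM, aged vehicle 0.800 to 2.21 and aged GW8510 0.590 to 1.28.

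**Figure D3:**
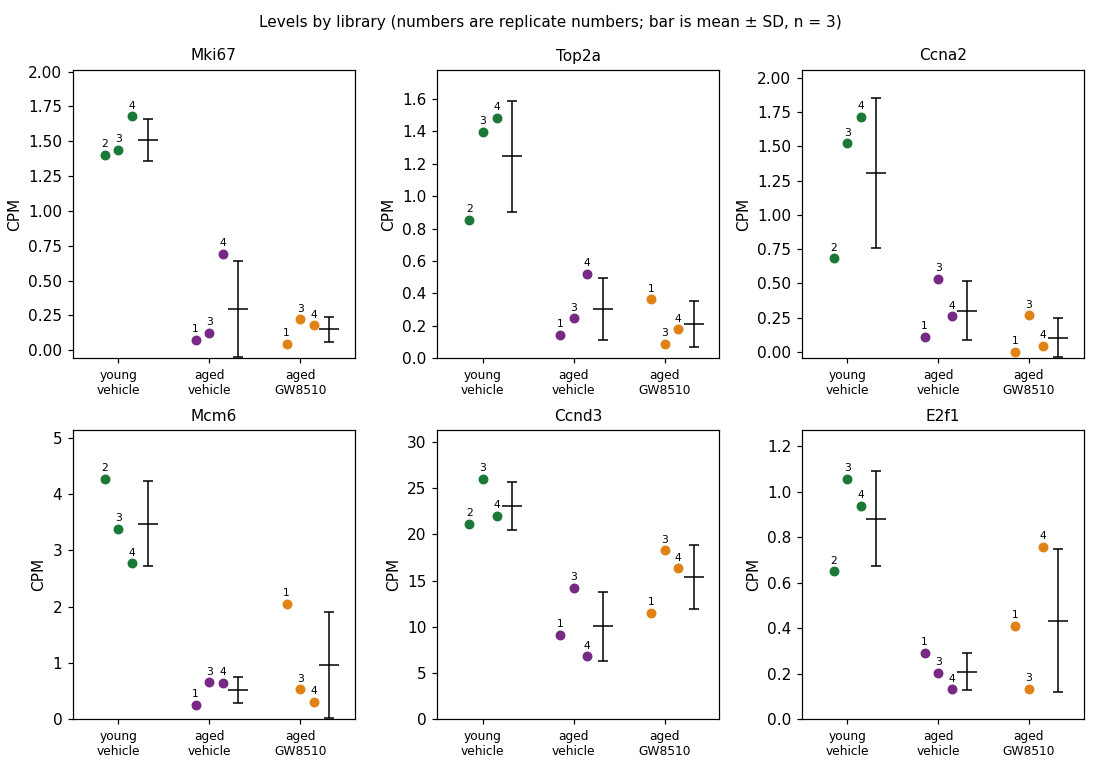
CPM of Mki67, Top2a, Ccna2, Mcm6, Ccnd3 and E2f1 in each library on linear axes, with replicate numbers above the points and the mean ± SD of each group (n = 3) beside them. Aged vehicle library 4 is the highest aged library for Mki67 (0.693 CPM), and aged GW8510 library 1 for Mcm6 (2.04 CPM).

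The promoters of these genes are shown because they carry the elements by which cell cycle genes are timed, and because the members with and without an aged difference can be set side by side. RefSeq's table for GRCm38.p6 holds promoters of 27 of the 36 members, each from 250 bases before to 50 after the gene start. It has no entry for Ccnd1, Ccnd2, Ccne2, Myc, Mcm4, Ccna2, Foxm1, Aurkb and Kif20a. Printed are the 200 bases before the start, 5′ to 3′ on the gene's strand, with matches in capitals on either strand: CHR elements (TTTGAA or TTTAAA) and CCAAT boxes in the first 4, E2F sites (TTTCGCGC, TTTGGCGC or TTTCCCGC) and CCAAT boxes in the last 2, and all 3 kinds in Cdk1.
Mki67, chr7:135716380-135716579, minus strand: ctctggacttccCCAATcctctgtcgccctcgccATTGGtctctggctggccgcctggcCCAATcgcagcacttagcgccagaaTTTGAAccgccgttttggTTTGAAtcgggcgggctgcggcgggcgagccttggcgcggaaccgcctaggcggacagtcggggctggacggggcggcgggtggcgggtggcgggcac
Top2a, chr11:99024190-99024389, minus strand: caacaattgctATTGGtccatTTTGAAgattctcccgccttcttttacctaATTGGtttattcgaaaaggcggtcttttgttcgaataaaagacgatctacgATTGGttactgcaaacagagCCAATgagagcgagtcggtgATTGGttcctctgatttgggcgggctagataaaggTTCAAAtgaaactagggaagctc
Cdk1, chr10:69352913-69353112, minus strand: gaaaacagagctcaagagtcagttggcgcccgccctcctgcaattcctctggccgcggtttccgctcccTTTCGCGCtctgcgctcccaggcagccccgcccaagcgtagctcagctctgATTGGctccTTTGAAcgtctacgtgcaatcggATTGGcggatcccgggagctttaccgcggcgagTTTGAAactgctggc
Ccnb2, chr9:70421555-70421754, minus strand: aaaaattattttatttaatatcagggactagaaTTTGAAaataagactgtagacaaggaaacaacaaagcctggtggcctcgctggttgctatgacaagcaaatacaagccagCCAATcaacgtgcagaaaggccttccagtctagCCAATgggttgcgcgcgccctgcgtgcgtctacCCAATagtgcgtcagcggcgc
Mcm6, chr1:128359706-128359905, minus strand: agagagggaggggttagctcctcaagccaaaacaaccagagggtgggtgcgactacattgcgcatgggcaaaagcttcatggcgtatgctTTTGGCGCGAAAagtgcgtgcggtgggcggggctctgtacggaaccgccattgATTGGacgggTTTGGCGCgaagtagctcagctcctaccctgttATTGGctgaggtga
Mcm5, chr8:75109309-75109508, plus strand: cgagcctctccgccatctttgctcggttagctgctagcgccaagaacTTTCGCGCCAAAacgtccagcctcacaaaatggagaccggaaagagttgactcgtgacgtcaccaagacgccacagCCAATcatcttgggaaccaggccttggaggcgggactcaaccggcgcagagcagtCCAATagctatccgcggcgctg
Counted over the whole windows of the table, 18 of the 27 members held a CHR element (66.7%, against 30.6% of 27025 genes), 23 a CCAAT box (85.2% against 41.1%) and 5 an E2F site (18.5% against 2.12%). An E-box (CACGTG) stood in 1 member, Tyms (3.70% against 8.09%). Neighbouring E2F matches on opposite strands can share bases, as they do in Mcm6 and Mcm5.

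The matches are given by role and by level. All 5 S, G2 and M regulators with a promoter in the table held a CHR element and a CCAAT box, and 9 of 10 spindle genes held a CHR element. E2F sites stood in 4 of 5 helicase subunits (Mcm3, Mcm5, Mcm6 and Mcm7) and in Cdk1. A CHR element stood in 7 of the 10 members that were higher in young than in all aged libraries, and in 11 of the other 17. An E2F site stood in 2 of those 10 and in 3 of the other 17. Mcm5 and Mcm6 both carry overlapping E2F matches and CCAAT boxes, yet Mcm5 had a log2 fold change of 0.05 with age and Mcm6 one of -2.74. In Ccnb2 the CCAAT boxes start at -87, -54 and -21, at equal distances, counted from the start with -1 as the base before it. A CHR element began within 50 bases of the start in 14 members (51.9%, against 9.54% of genes), a window chosen after the positions were seen. A match describes letters in the window and shows no binding.

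**Figure D4:**
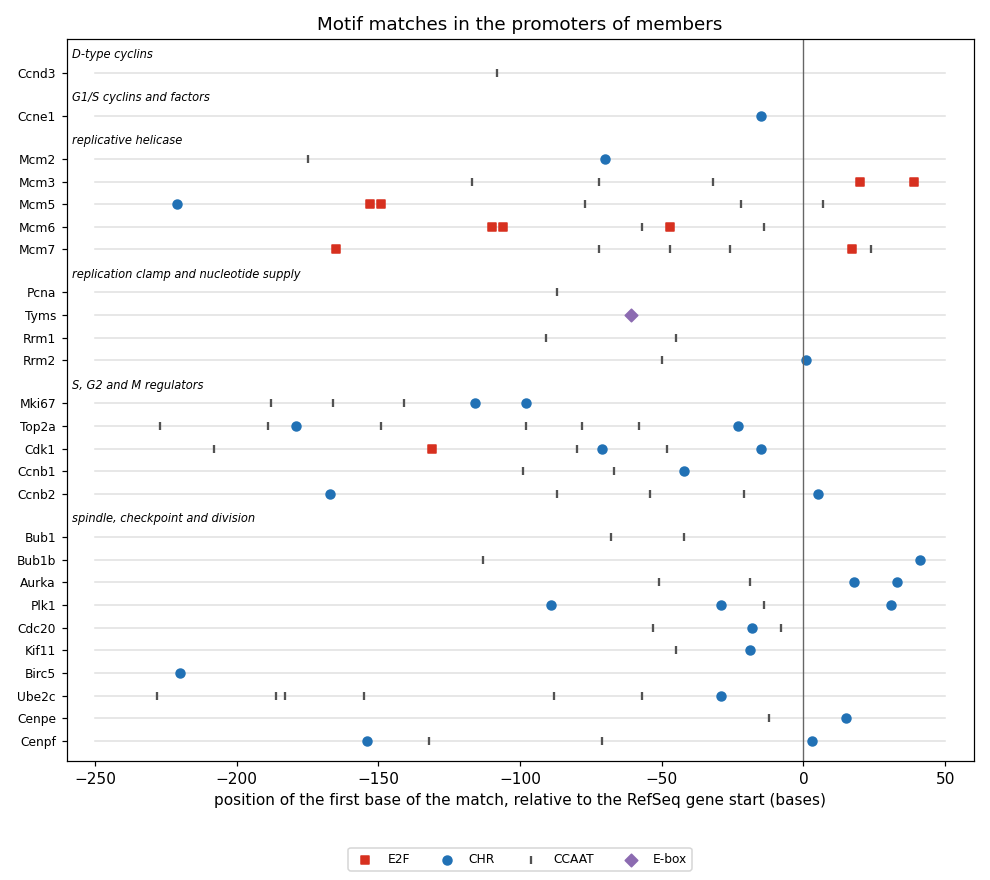
Position of the first base of each motif match relative to the RefSeq gene start, for the 26 members with a match; E2f1 has a promoter in the table and no match, and Ccnd3 and Mcm7 have 2 promoters drawn on 1 line. CHR elements (blue) gather near the start in the mitotic rows, and E2F sites (red) stand in 4 helicase rows and Cdk1.

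The spindle and checkpoint genes were mostly at the edge of detection in aged muscle. Bub1 had 7, 4 and 6 counts in the young libraries and 0 in all 6 aged ones. The aged groups were set at a floor of 3 counts summed over their 3 libraries, the floor used for all such folds. On that floor Bub1 was 5.42-fold lower in aged vehicle and 4.84-fold lower in aged GW8510 than in young. These folds take the young counts as exact and are not lower bounds. Cenpe had 12 counts over the young libraries, 1 over aged vehicle and 0 over aged GW8510. The young counts were 8, 2 and 2 in libraries 2, 3 and 4, so most came from young library 2. The pooled young over aged vehicle ratio of Cenpe was 11.5, with a 95% counting interval of 1.70 to 490. Aurkb had 27 counts in young, 4 in aged vehicle and 1 in aged GW8510, Birc5 had 27, 6 and 5, and Bub1b had 22, 3 and 8. For Cenpf, with 7, 2 and 3 counts, the interval of the young over aged vehicle ratio ran from 0.637 to 33.0, so a difference was not detectable at this depth. Intervals cover counting error only.

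Aurka, Aurora kinase A of the spindle poles, was the spindle member with the highest level. It measured 18.7, 33.1 and 21.6 CPM in young, 20.3, 13.7 and 7.80 in aged vehicle, and 16.3, 5.89 and 12.3 in aged GW8510. Aged vehicle library 1 lay within the young range, and the treated libraries all lay below it. The log2 fold change was -0.81 ± 0.41 SE for aged vehicle over young (edgeR adjusted p = 0.313) and -1.09 ± 0.42 SE for aged GW8510 over young (edgeR adjusted p = 0.225). Aurka lies 146 bases from Cstf1 and 441 from Fam210b, both on the opposite strand, without exon overlap. Ube2c measured 12.8 to 26.7 CPM in young, 6.06 to 15.0 in aged vehicle and 6.72 to 12.0 in aged GW8510. Its exons overlap those of Tnnc2, fast troponin C, by 592 bases on the opposite strand, and Tnnc2 averaged 20810 TPM, so the Ube2c level is uncertain. Kif20a, a kinesin of cytokinesis, overlaps Cdc23 by 1271 bases in the same way. Kif11, the spindle motor, measured 0.581 to 1.06 CPM in young and 0.401 to 0.727 in the aged libraries.

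The replicative helicase, a ring of MCM2 to MCM7 that unwinds DNA at the fork, had 1 subunit far from the rest. Mcm6 (chr1:128331590-128359664, minus strand) measured 4.28, 3.38 and 2.77 CPM in young, 0.255, 0.654 and 0.650 in aged vehicle, and 2.04, 0.531 and 0.312 in aged GW8510 libraries 1, 3 and 4. All 6 aged libraries lay below the young ones, with treated library 1 nearest. Mcm6 was 6.69-fold lower in aged vehicle than in young (log2 fold change -2.74 ± 0.65 SE, edgeR adjusted p = 0.0771). In a fit without aged GW8510 library 1, which is in neither group compared, the log2 fold change was again -2.74 and the edgeR adjusted p was 0.0421. Mcm6 passed in only this 1 of the 9 fits with a library left out, and the largest edgeR adjusted p among them was 0.2045. No exon of another gene overlaps Mcm6.

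The other 5 subunits stood close to their young level. Mcm7, the highest of the 6, measured 6.16, 5.88 and 5.54 CPM in young, 6.66, 4.91 and 6.89 in aged vehicle, and 5.31, 5.14 and 5.65 in aged GW8510. Its groups overlapped throughout (aged vehicle over young log2 fold change 0.07 ± 0.19 SE, edgeR adjusted p = 0.868). Mcm7 shares exon bases on the opposite strand with Ap4m1 (321) and Cops6 (64). The log2 fold changes of Mcm2, Mcm3, Mcm4 and Mcm5 with age were 0.10, -0.32, 0.19 and 0.05. In the cell the ring holds the 6 subunits in equal number.

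The replication clamp and the genes of nucleotide supply mostly overlapped between the ages. Rrm1, the large subunit of ribonucleotide reductase, measured 36.5, 31.3 and 20.4 CPM in young, 40.2, 35.3 and 33.8 in aged vehicle, and 36.2, 34.4 and 42.2 in aged GW8510. The groups overlapped, with young library 4 the lowest of all 9 (aged vehicle over young log2 fold change 0.31 ± 0.21 SE, edgeR adjusted p = 0.430). Rrm2, the small subunit that is made in S phase, measured 1.51 to 1.99 CPM in young and 0.563 to 1.10 in aged vehicle, with no overlap, and 0.545 to 2.04 in aged GW8510. Pcna, the sliding clamp, measured 12.6 to 16.5 CPM in young and 15.3 to 17.8 in aged vehicle. A pseudogene of it, Pcna-ps2, held 859 counts over the 9 libraries. Tyms, thymidylate synthase, measured 0.634 to 1.37 CPM in young and 0.650 to 1.15 in the aged libraries.

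Among the G1/S cyclins and factors, E2f1 and Ccne1 had log2 fold changes below 0 with age, and Ccne2 had one above 0. E2f1, the activator of replication genes, measured 0.650, 1.06 and 0.936 CPM in young, 0.291, 0.205 and 0.130 in aged vehicle, and 0.409, 0.133 and 0.757 in aged GW8510. The aged vehicle libraries all lay below the young ones, and treated library 4 reached into the young range. E2f1 was 4.10-fold lower in aged vehicle than in young (log2 fold change -2.04 ± 0.62 SE, edgeR adjusted p = 0.137). Ccne2, cyclin E2, measured 4.21, 3.85 and 4.37 CPM in young, 9.31, 4.42 and 4.81 in aged vehicle, and 7.49, 5.80 and 4.36 in aged GW8510. It was the only member whose aged vehicle libraries were all higher, though libraries 3 and 4 stood just above the young range (log2 fold change 0.58 ± 0.31 SE, edgeR adjusted p = 0.337). Its exons overlap those of Ints8 on the opposite strand by 609 bases. Ccne1, cyclin E1, measured 0.274 to 0.897 CPM in young and 0.109 to 0.520 in aged vehicle (log2 fold change -1.11 ± 0.66 SE, edgeR adjusted p = 0.377).

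Myc, the growth factor-responsive transcription factor, was given mainly by where aged vehicle library 4 stood. It measured 3.22, 4.44 and 1.83 CPM in young, 1.13, 1.51 and 6.97 in aged vehicle libraries 1, 3 and 4, and 2.45, 2.35 and 2.81 in aged GW8510. The highest and the lowest of the 9 libraries were both aged vehicle. The log2 fold change with age was 0.01 ± 0.61 SE with all libraries (edgeR adjusted p = 0.993) and -1.26 without library 4 (edgeR adjusted p = 0.183). This is the library with the raised neutrophil and T cell markers given above, whose part in the Myc value was not tested.

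The D-type cyclins, which couple growth signals to CDK4 and CDK6, include the cyclin with the highest level per length, Ccnd3 at 10.4 TPM. Ccne2 (2.25 TPM), Ccnd1 (2.05 TPM) and Ccnd2 (1.84 TPM) followed. Ccnd3, cyclin D3 (chr17:47505051-47599691, plus strand), measured 21.1, 26.1 and 22.0 CPM in young, 9.09, 14.2 and 6.80 in aged vehicle, and 11.5, 18.3 and 16.3 in aged GW8510. Every aged library lay below every young one. Ccnd3 was 2.30-fold lower in aged vehicle than in young (log2 fold change -1.20 ± 0.27 SE, edgeR adjusted p = 0.0687), the smallest adjusted p of any member in that comparison. Without aged vehicle library 3 the log2 fold change was -1.53 and the edgeR adjusted p 0.0363. Ccnd3 passed in only this 1 of the 9 fits with a library left out, and the largest edgeR adjusted p among them was 0.2097. Exons of Ccnd3 and Bysl overlap by 361 bases on opposite strands.

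Ccnd2, cyclin D2, measured 15.6, 11.5 and 10.3 CPM in young, 6.58, 11.3 and 3.90 in aged vehicle, and 7.17, 13.7 and 12.8 in aged GW8510. Its groups overlapped through aged vehicle library 3 (aged vehicle over young log2 fold change -0.78 ± 0.37 SE, edgeR adjusted p = 0.289). Ccnd1, cyclin D1, measured 6.60 to 13.7 CPM in young and 1.99 to 6.26 in aged vehicle, which did not overlap (log2 fold change -1.54 ± 0.49 SE, edgeR adjusted p = 0.148). Without aged vehicle library 3 the Ccnd1 value was -2.14 (edgeR adjusted p = 0.0701). Exons of Ccnd1 overlap those of LTO1 on the opposite strand by 1100 bases, and LTO1 averaged 7.22 TPM against 2.05 for Ccnd1. Exons of Ccnd2 overlap those of Gm43126, an antisense gene, by 372 bases (2.09 TPM against 1.84). Reads may be shared in both cases if counting ignored strand, which is not stated. All 3 D-type cyclins were highest in library 3 and lowest in library 4 within the aged vehicle group, and lowest in library 1 within the treated group. Their summed level was 18.6, 31.7 and 12.7 CPM in aged vehicle libraries 1, 3 and 4 and 21.7, 39.8 and 37.0 in aged GW8510 libraries 1, 3 and 4, against 43.3 to 49.8 in young.

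Markers of the cells between the fibres differed between the same libraries. The 10 endothelial markers summed to 344, 453 and 322 CPM in aged vehicle libraries 1, 3 and 4, to 406, 674 and 488 in aged GW8510 libraries 1, 3 and 4, and to 464 to 548 in young. The 10 fibroblast and fibro-adipogenic markers summed to 1010 to 2099 CPM in young, 142 to 535 in aged vehicle and 298 to 609 in aged GW8510. The 10 macrophage markers summed to 104 to 292 CPM in young and 80.8 to 172 in the aged libraries. All 10 fibroblast, all 10 endothelial and all 10 macrophage markers had a log2 fold change below 0 in aged vehicle over young, and 1 fibroblast marker passed the edgeR test. The 10 satellite cell markers summed to 125 to 147 CPM in young, to 108, 118 and 222 in aged vehicle, and to 104 to 115 in aged GW8510. The 222 CPM of aged vehicle library 4 came mainly from Itga7 (129 CPM) and Cdh15 (64.9 CPM), while Pax7, Chodl and Heyl stood at 0.303, 0.736 and 1.95 CPM there. Of 9 satellite cell markers tested, 6 were below 0 with age and 9 in aged GW8510 over young. The 7 tendon markers tested were all below 0 with age (median -3.62 on the log2 scale, 1 past the edgeR test), and 1 passed lower in aged GW8510 over young as well. With age, 7 of 7 adipocyte, 8 of 10 Schwann cell and 9 of 10 smooth muscle and pericyte markers were below 0, and 0 passed. So were 5 of 10 muscle fibre markers and the 1 T and NK cell marker tested. Above 0 were 5 of 6 erythroid and 2 of 3 B and plasma cell markers tested, and 0 passed. Of the B and plasma cell markers, Igkc stood at 156 CPM in aged vehicle library 4 and at 0.0390 to 5.31 CPM elsewhere. The part of cell makeup in the levels of the proliferation genes was not tested.

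**Figure D5:**
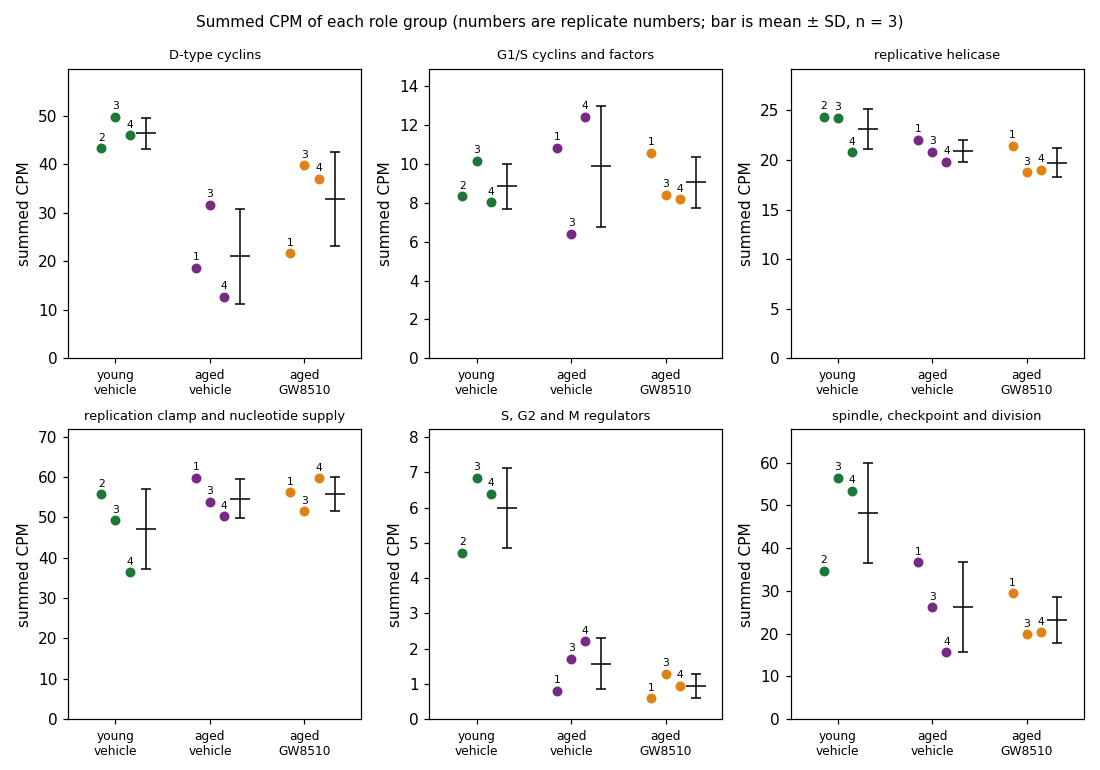
Summed CPM of each role group in each library on linear axes from 0, with replicate numbers and the mean ± SD of each group (n = 3). The S, G2 and M regulators separate young (4.72 to 6.85 CPM) from aged libraries, the D-type cyclins are lowest in aged vehicle library 4 (12.7 CPM), and the spindle sum consists mainly of Aurka and Ube2c.

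The second comparison asks what GW8510 did in aged muscle, and for the proliferation genes no difference passed. Of 26 members tested, 0 reached an adjusted p under 0.05 in aged GW8510 over aged vehicle (edgeR, smallest adjusted p 0.934), where 0% of all 14384 genes did. DESeq2 called 0 members (0.0139% of genes lower, 0.0556% higher), limma-voom called 0, and edgeR without the filter called 0 of the 36 (0.00389% lower, 0.0156% higher). At an unadjusted p under 0.05, 1 member was higher (Ccnd3) and 0 lower, against 2.71% and 1.79% of genes. Libraries did not overlap for 2 members that were higher, Bub1b and Cenpf (3.33% of genes), and 1 that was lower, Mcm4 (2.56%). The Cenpf case rests on 1 count in each treated library against 0, 1 and 1, and the Bub1b case on 2, 2 and 4 counts against 0, 1 and 2, so equal counts are separated there only by library size. The median log2 fold change of the 26 was -0.09, against 0.01 over all tested genes.

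All 3 D-type cyclins had positive values, 0.74 ± 0.49 SE for Ccnd1, 0.63 ± 0.37 for Ccnd2 and 0.62 ± 0.27 for Ccnd3 on the log2 scale, with overlapping libraries (edgeR adjusted p = 0.934 for each). The Ccnd3 value was 0.40 without aged vehicle library 4 and 0.95 without library 3. All 10 endothelial and all 10 macrophage markers were above 0 in the same comparison, with 0 past the test. So were 7 of 7 adipocyte, 9 of 10 smooth muscle and pericyte, 8 of 10 fibroblast, 7 of 10 Schwann cell and 5 of 7 tendon markers tested. Above 0 were also 5 of 6 erythroid, 6 of 10 muscle fibre, 4 of 9 satellite cell, 0 of 3 B and plasma cell and 0 of 1 T and NK cell markers. The 4 tested S, G2 and M regulators were below 0: Ccna2 at -1.47 ± 0.97 SE, Mki67 at -0.94 ± 0.85, Top2a at -0.51 ± 0.66 and Cdk1 at -0.43 ± 0.92. The Mki67 value was 0.59 and the Top2a value 0.09 without aged vehicle library 4, so their sign rests on that library. Myc stood at -0.33 ± 0.62 SE with all libraries and at 0.93 without it. The Ccna2 value was -3.46 without aged GW8510 library 3 and -0.77 without aged vehicle library 3. The Top2a value without aged GW8510 library 1 was -1.14, and the Cdk1 value without aged vehicle library 1 was -1.04. The Ccnd1 value without aged vehicle library 3 was 1.34. E2f1 stood at 1.02 ± 0.65 SE, and at 0.33 without aged GW8510 library 4. Mcm6 stood at 0.89 ± 0.66 SE, and at -0.29 without aged GW8510 library 1.

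Set against young muscle, 6 of the 7 S, G2 and M regulators and 8 of the 12 spindle members were lower in every treated aged library, and again no member passed. In aged GW8510 over young vehicle, 0 of 26 members had an adjusted p under 0.05 (edgeR), where 0.417% of all genes were lower and 0.334% higher. At an unadjusted p under 0.05, 9 members were lower and 0 higher, against 8.17% and 8.51% of genes. Of those 9, Ccna2, Cdk1, Mki67 and Top2a had passed the filter through the young group. DESeq2 called 3 lower (Ccna2, Mki67 and Top2a) and 0 higher, against 3.1% and 2.95% of genes. limma-voom called 0 members (0.487% of genes lower, 0.243% higher). Without the filter, edgeR called 4 of the 36 lower (Ccna2, Ccnb2, Mki67 and Top2a) and 0 higher, against 1.21% and 0.937% of genes. The authors' deposited table gives an adjusted p under 0.05 to 7 members, all lower: Aurka, Ccna2, Ccnb2, Mcm6, Mki67, Top2a and Ube2c. Libraries did not overlap for 17 of the 36 members, all lower (8.57% of genes were), and 0 members were higher (8.79% of genes). The young libraries are shared with the aged vehicle comparison, so these comparisons are not independent.

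Side by side, aged GW8510 over young and aged vehicle over young gave log2 fold changes of -3.58 ± 0.91 SE and -2.11 for Ccna2, -3.30 ± 0.79 and -2.36 for Mki67, and -2.54 ± 0.62 and -2.03 for Top2a. The edgeR adjusted p of the treated comparison was 0.0917 for Ccna2, 0.0826 for Mki67 and 0.0855 for Top2a. When aged vehicle library 4, which is in neither group of that comparison, was left out of the fit, the edgeR adjusted p was 0.0138 for Mki67, 0.0414 for Top2a and 0.0445 for Ccnb2. Each passed in only that 1 of its fits with a library left out. The largest edgeR adjusted p in such fits was 0.2325 for Mki67, 0.2771 for Top2a and 0.2403 for Ccnb2. All 3 passed the filter through their young libraries, so their place among the tested genes depends on the difference tested. Mcm6 gave -1.85 ± 0.62 SE in the treated comparison (edgeR adjusted p = 0.171) against -2.74 in aged vehicle. The treated value without aged GW8510 library 1 was -3.03 for Mcm6 and -3.17 for Top2a, and without aged GW8510 library 3 it was -5.57 for Ccna2. Ccnd3 gave -0.58 ± 0.27 SE (edgeR adjusted p = 0.307) against -1.20, and Ccnd2 gave -0.15 against -0.78. The helicase subunits other than Mcm6, with Pcna and Tyms, lay between -0.13 and 0.12.

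Of 98 other cell cycle genes on 5 lists, 73 were tested, and 1 passed in each comparison with young muscle, lower in both, where 0.695% and 0.417% of all tested genes were lower. With so few calls this share is near the background. Cdk6, a kinase partner of the D-type cyclins, measured 7.11, 5.20 and 5.19 CPM in young, 1.42, 1.76 and 1.73 in aged vehicle, and 1.18, 1.90 and 1.43 in aged GW8510. Every aged library lay far below the young ones. Cdk6 fell 3.56-fold in aged vehicle (log2 fold change -1.83 ± 0.27 SE, edgeR adjusted p = 0.0250) and 3.87-fold in aged GW8510 (log2 fold change -1.95 ± 0.27 SE, edgeR adjusted p = 0.0152) against young. The call with age was lost without young library 2, young library 3 or aged vehicle library 1 (edgeR adjusted p = 0.0665, 0.0887 and 0.0721), and the call in treated muscle without young library 3 or aged GW8510 library 1 (edgeR adjusted p = 0.0547 and 0.0532). Its log2 fold changes in those fits lay between -2.03 and -1.68. Between the aged groups its log2 fold change was -0.12 ± 0.27 SE (edgeR adjusted p = 0.975).

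By list, none of 26 tested licensing and replication genes, 18 mitosis and cytokinesis genes, 15 E2F, MYB and RB family genes and 7 CDK inhibitors passed in any comparison, and Cdk6 was the 1 of 7 kinases of G1 and S that did. Of the 36 mitosis and cytokinesis genes, 12 had all aged vehicle libraries below young and 1 above, while of the 30 licensing and replication genes 3 were below and 7 above, against the 9.18% and 8.38% of genes given above. The 18 mitosis and cytokinesis genes tested were split, 9 above 0 and 9 below with age (median log2 fold change -0.03). Over all 73 other cell cycle genes tested, 41 were above 0 and 32 below (median 0.08). Cdk4, the other partner of the D-type cyclins, measured 25.8 ± 4.38 CPM in young, 31.9 ± 6.90 in aged vehicle and 29.6 ± 5.08 in aged GW8510 (SD, n = 3). Cdk2, the partner of cyclins E and A, measured 4.33 ± 0.486, 2.75 ± 0.426 and 3.11 ± 0.672 CPM. Cdkn1a, the CDK inhibitor p21, measured 39.3 ± 9.85, 26.5 ± 14.9 and 12.5 ± 2.57 CPM. Its log2 fold change in aged GW8510 over young was -1.65 ± 0.37 SE (edgeR adjusted p = 0.0701). The 7 CDK inhibitors were split with age, 3 above 0 and 4 below. All aged vehicle libraries stood above young for 3 of them and below for 0, against 8.38% and 9.18% of genes. Cdkn2a stood at 3.26 ± 0.87 SE with age (edgeR adjusted p = 0.0969), from a young mean of 0.0814 CPM near the floor. Cdkn2c stood at 0.78 ± 0.19 SE (edgeR adjusted p = 0.0814).

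Among the 6 aged libraries each held the highest value of 4 to 8 members, with 8 in aged vehicle library 4, among them Mki67, Top2a, Kif20a and Ccne1. In 15 members, the D-type cyclins, Ube2c and Kif20a among them, the deposited counts carry fractions in at least 1 library. The other 21 members had whole counts in every library.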

How the data were processed

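RNA sequencing of muscle from 9 libraries was analysed. The authors deposited expected counts, not normalized, for each gene in each library, per the file headers and values (91.4% of values are whole). The authors also deposited TPM values and, per pair of groups, a log2 fold change and an adjusted p-value, per the file headers. The submitters' processing notes name GRCm38, CASAVA, HISAT2, StringTie, RSEM, DESeq2 and edgeR, without versions or roles; annotation and strand of counting are not given in the sources used here. Gene positions come from GENCODE M21 (GRCm38).

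Counts were rounded and filtered with edgeR's filterByExpr (minimum count 10), which left 14384 genes. Scaling used TMM. Groups were compared two-sided by the quasi-likelihood F test of edgeR (version 4.0.16 in R 4.3.3), all 9 libraries in 1 fit, with Benjamini-Hochberg adjustment over all tested genes and a threshold of 0.05. Standard errors were derived from each gene's F value and log2 fold change. Alternatives were DESeq2 1.42.0, limma-voom (limma 3.58.1), DESeq2 size factors, other filters, a 6-library fit, a replicate block and each library left out. Ratios of low counts carry exact 95% intervals. The fit was tested on simulated data. Library totals of 21718930 to 27437937 give a floor of 3 counts at 0.103 to 0.136 CPM.

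The members and all gene lists were chosen with earlier results of these data known. Members get full values where they are among the 3 smallest p of a comparison or lead their role in CPM. Other cell cycle genes get them where they pass, with Cdk2, Cdk4, Cdk6 and Cdkn1a as values. The values of Cdkn2a, Cdkn2c and the other members were chosen after they were seen.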

Additional observations from a re-analysis of the deposited data

How the results depend on the processing

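Low counts limit these results: 10 members were not tested in the main fit, and the number of calls moves with the filter and the tool. Counts of proliferation genes past the threshold were 0 in all 3 comparisons. In aged vehicle over young vehicle they were 3 with no filter (Ccnd1, Ccnd3 and Mcm6) and 5 with DESeq2, and in aged GW8510 over young vehicle 4 with no filter, 3 with DESeq2 and 2 in the fit of only the 6 libraries compared, all lower. Leaving out 1 library at a time gave 0 to 1 and 0 to 3, and 0 throughout in aged GW8510 over aged vehicle. The 3 come without aged vehicle library 4 (Ccnb2, Mki67 and Top2a).

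Other cell cycle genes past the threshold, 1 in each comparison with young, numbered 3 with no filter and 8 with DESeq2 with age, and 2, 8 and, with only 6 libraries, 4 in aged GW8510 over young vehicle. Leaving out 1 library gave 0 to 2 and 0 to 4. With age the calls went both ways, 1 lower and 2 higher with no filter, and 3 lower and 5 higher with DESeq2. Over all genes, 1.69% were called lower and 1.03% higher with no filter, and 3.96% and 2.82% with DESeq2. The median log2 fold change of the members was -1.17 with no filter with age and -0.95 with no filter in aged GW8510 over young vehicle. Leaving out 1 library gave -1.07 to -0.84 with age, -0.232 to 0.0215 in aged GW8510 over aged vehicle and -0.88 to -0.49 in aged GW8510 over young vehicle. Without aged vehicle library 4, members with all libraries higher with age went from 1 to 2, and 20 were all lower with age. Over all genes these shares went from 8.38% to 12.9% higher and from 9.18% to 12.5% lower. Members all lower in aged GW8510 over aged vehicle went from 1 to 3, and 3 were all higher. Over all genes these shares went from 2.56% to 5.85% lower and from 3.33% to 5.9% higher. With fewer libraries, non-overlap is easier for any gene. Any further cause was not tested.

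The labels do not say whether the replicate numbers pair the libraries. Deviations of same-numbered aged vehicle and aged GW8510 libraries correlated at -0.08, 0.02 and -0.21, and those of differently numbered ones at -0.16 to 0.18. Same-numbered young and aged vehicle libraries correlated at 0.14 and 0.07. So few correlations cannot show whether the libraries were paired. With the replicate number as a block, 0 proliferation genes passed, 0 other cell cycle genes passed in either comparison with young, and the median with age was -1.13. Over all genes, calls with age numbered 3 higher and 2 lower with the block, against 75 and 100 without it, and in aged GW8510 over young vehicle 3 and 5, against 48 and 60.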
